A study of Mus musculus with 6 samples.

Results

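The keratins described here are 10 genes, taken from a list of names, of the 36528 genes counted in each library: Krt6a, Krt6b, Krt75, Krt16 and Krt17, which are known from wounded or hair follicle epithelium, and Krt7, Krt8, Krt18, Krt19 and Krt20, which are known from simple (single-layered) epithelia. All 10 were found by Entrez gene number, and 9 had enough reads to be tested, Krt20 being the exception. Polyadenylated RNA was sequenced from mouse skin cells sorted as CD49f-positive, CD34-positive and GFP-negative, that is, bulge stem cells of the hair follicle without the reporter. The DT group (3 libraries) came from Lgr5-DTReGFP mice given diphtheria toxin (DT), and the saline group (3 libraries) from Lgr5-DTReGFP mice given saline (NaCl). Both groups carry the toxin receptor and eGFP at Lgr5, so that DT kills cells that express Lgr5, and no DT-treated group without the receptor was analysed here. Age, sex, hair cycle stage, dose and time after DT are not given in the labels, nor is it said that each library came from its own animals. The p-values therefore reflect only how these 6 libraries vary, and that variation may be technical.

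Keratins form the intermediate filaments of epithelial cells, and each filament is built from pairs of a type I and a type II keratin. The type II keratins Krt6a and Krt6b and the type I keratins Krt16 and Krt17 are found in parts of the follicle such as the outer root sheath and companion layer, and the epidermis switches on Krt6a, Krt6b, Krt16 and Krt17 at wound edges. Krt8 (type II) and Krt18 (type I) are the pair of embryonic and simple epithelia and, in skin, of Merkel cells, which also make Krt20.

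The libraries held 15300755 to 25558859 reads in genes in the DT group and 21351548 to 22741846 in the saline group. Over 15132 tested genes, DT libraries had 2600 genes higher and 1795 lower (29.0% called, at an edgeR quasi-likelihood adjusted p under 0.05). Scaled by library size only, the counts were 2099 higher and 2316 lower, and the median log2 fold change over all tested genes was -0.11, against -0.01 with TMM scaling. Saline library 1 stood apart from saline libraries 2 and 3 on the second principal component (56.9, against -30.7 and -34.5). In bulk RNA, fewer cells of a type and less RNA per cell cannot be told apart. The sort markers were present in every library, Cd34 at 1883 to 2606 CPM in DT and 2406 to 3088 CPM in saline, Itga6 (CD49f) at 88.6 to 109.6 CPM in DT and 107.2 to 145.6 CPM in saline, and Krt15, the bulge keratin, at 23940 to 42950 CPM in DT and 28139 to 41302 CPM in saline. Of the 8 bulge stem cell markers listed, these 3 and Tbx1 did not pass the test, and Lgr5 (log2 fold change -1.76), Lhx2 (-1.09), Sox9 (-0.71) and Nfatc1 (-0.69) fell in DT. Of all genes tested, 11.9% fell.

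Among the 10 keratins, Krt6a, Krt6b, Krt16, Krt8 and Krt18 rose in DT, 0 fell, and Krt17, Krt75, Krt7 and Krt19 did not pass the test. Thus 5 of the 9 tested were called higher, where 17.2% of all genes tested were called higher. Their median log2 fold change was 1.98, against -0.01 for all genes tested. The 10 keratins were chosen with earlier results of these data known, so these comparisons with all genes are descriptions only. All DT libraries lay above all saline libraries for 6 of the 9 and below them for Krt7, where the groups did not overlap for 45.9% of all genes tested. The 5 that rose span both sets, 3 of the 5 in the set called wound-induced here and 2 of the 4 simple keratins tested. The first set includes Krt75, a keratin of the companion layer.

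**Figure D1:**
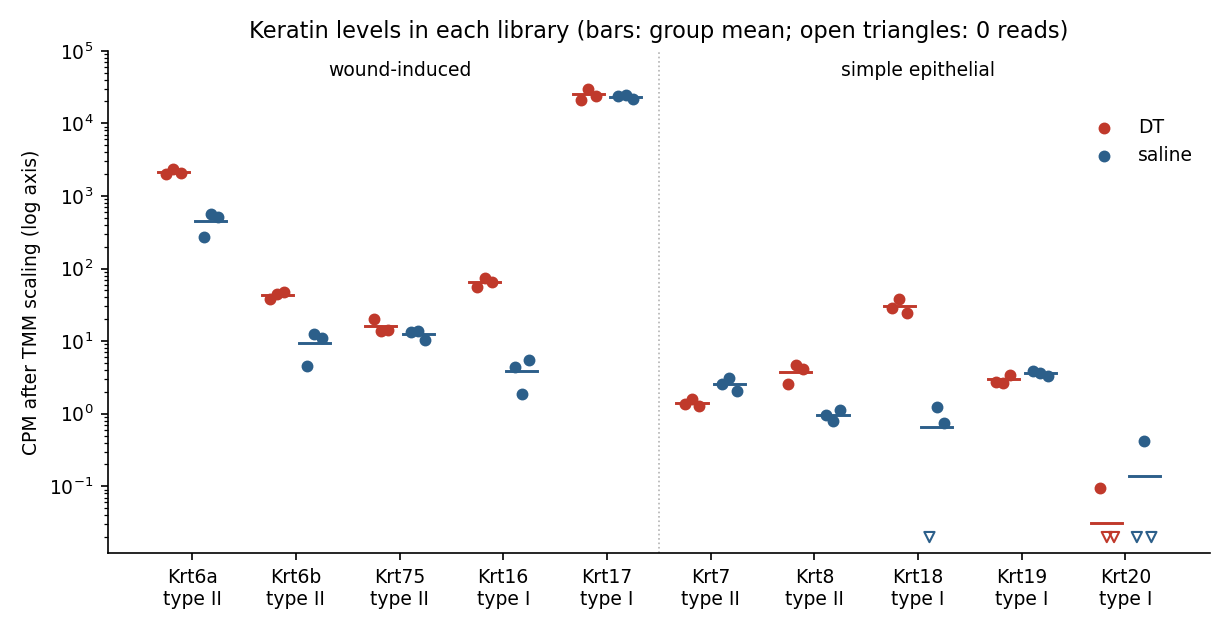
Level of each keratin in each library, in CPM after TMM scaling on a log axis, with DT in red on the left and saline in blue on the right of each gene. Krt16, Krt6a, Krt6b, Krt8, Krt18 and, by a narrow margin, Krt75 lie higher in every DT library than in any saline library. Krt17, the most abundant of the 10, overlaps between the groups.

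Krt6a, the type II keratin of activated keratinocytes, was at 2035, 2353 and 2085 CPM (read counts scaled to a common library size, with TMM) in DT libraries 1 to 3, against 269, 569 and 520.5 CPM in saline libraries 1 to 3. All DT libraries were above all saline libraries, and saline library 1 held the lowest value. The mean was 2158 ± 171 CPM in DT and 453 ± 161 CPM in saline (SD, n = 3 each), 4.76-fold higher (log2 fold change 2.25, SE 0.25, edgeR adjusted p = 0.000254). Krt6a (Entrez 16687) lies on chromosome 15 from 101689928 to 101694305 in GRCm38.

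Its neighbour Krt6b (Entrez 16688, chromosome 15 from 101676023 to 101680293), a near-copy of Krt6a, had 37.8, 45.3 and 48.1 CPM in DT libraries 1 to 3, against 4.60, 12.6 and 10.9 CPM in saline libraries 1 to 3. As for Krt6a, the groups did not overlap and saline library 1 was lowest (log2 fold change 2.22, SE 0.32, edgeR adjusted p = 0.00103). Reads of Krt6b came to 1.86%, 1.92% and 2.31% of those of Krt6a in DT libraries 1 to 3, and to 1.71%, 2.22% and 2.09% in saline libraries 1 to 3. RPKM is the read count per length as the authors deposited it, scaled with their own size factor. The log2 ratio of Krt6a to Krt6b RPKM differed by -0.02 between DT and saline (exact permutation test, two-sided, p = 0.9, where 0.1 is the smallest that 3 against 3 libraries allow). Of the 2186 windows of 50 bases in the GENCODE transcript of Krt6b, 50.1% also occur in transcripts of other genes, 972 of them in Krt6a. Only reads that align uniquely were counted, so both genes are under-counted, and Krt6a also overlaps the antisense gene Gm49428, not analysed here. Reads of the 2 copies cannot be fully told apart, and whether part of the Krt6b count stems from Krt6a RNA was not tested.

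Krt16, the type I partner of Krt6a in wounded epidermis, had the greatest change among the wound-induced keratins. It was at 55.5, 73.1 and 65.3 CPM in DT libraries 1 to 3, against 4.39, 1.85 and 5.47 CPM in saline libraries 1 to 3. No library of one group came near the other, and the lowest saline value was in library 2. The mean was 64.6 ± 8.82 CPM in DT and 3.90 ± 1.86 CPM in saline (SD, n = 3 each; log2 fold change 4.04, SE 0.33, edgeR adjusted p = 5.75e-05), 276th by log2 fold change among the 2600 genes that rose. Of its 50-base windows 37.6% occur in other genes, most of them in the pseudogene Gm11597, so this count, too, is a partial one (Krt16 is Entrez 16666, chromosome 11 from 100246091 to 100248902).

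Krt17 (Entrez 16667, chromosome 11 from 100256215 to 100261029), the other wound-associated type I keratin and the direct neighbour of Krt16, did not pass the test. It had 21247, 29896 and 23824 CPM in DT libraries 1 to 3, against 23999, 24607 and 21546 CPM in saline libraries 1 to 3. The groups overlapped, with both the lowest and the highest value in DT. The log2 fold change was 0.10 (95% interval -0.26 to 0.45, edgeR adjusted p = 0.682), and its sign turned without DT library 2 (-0.08) and with scaling by library size (-0.0006). Krt17 alone took 2.004%, 2.91% and 2.335% of all reads in genes in DT libraries 1 to 3 and 2.55%, 2.49% and 2.22% in saline libraries 1 to 3.

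Relative to Krt17, Krt16 was 0.00242, 0.00227 and 0.00254 by RPKM in DT libraries 1 to 3, against 0.000170, 0.0000698 and 0.000236 in saline libraries 1 to 3. The log2 ratio was 4.10 higher in DT (exact permutation test, two-sided, p = 0.1, the smallest possible; adjusted over 6 ratios, 0.12). So even in DT, Krt16 RNA was a small fraction of Krt17 RNA per length. Against Krt14, the basal keratin whose transcript shares most of the windows it shares with other genes with Krt16, the log2 ratio of Krt16 was 2.40 higher in DT (exact permutation p = 0.1). Both of these ratios, and that of Krt6a to Krt5 below, were chosen after the values were seen.

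Krt75 (Entrez 109052, chromosome 15 from 101563343 to 101573904), a type II keratin of the companion layer, had 20.1, 13.9 and 14.3 CPM in DT libraries 1 to 3, against 13.3, 13.8 and 10.4 CPM in saline libraries 1 to 3. Every DT value was above every saline value, but DT libraries 2 and 3 lay close to saline libraries 1 and 2. The log2 fold change was 0.36 (95% interval -0.13 to 0.86, edgeR adjusted p = 0.244). No 50-base window of its transcript occurs in another gene, unlike those of Krt6a and Krt6b.

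**Figure D2:**
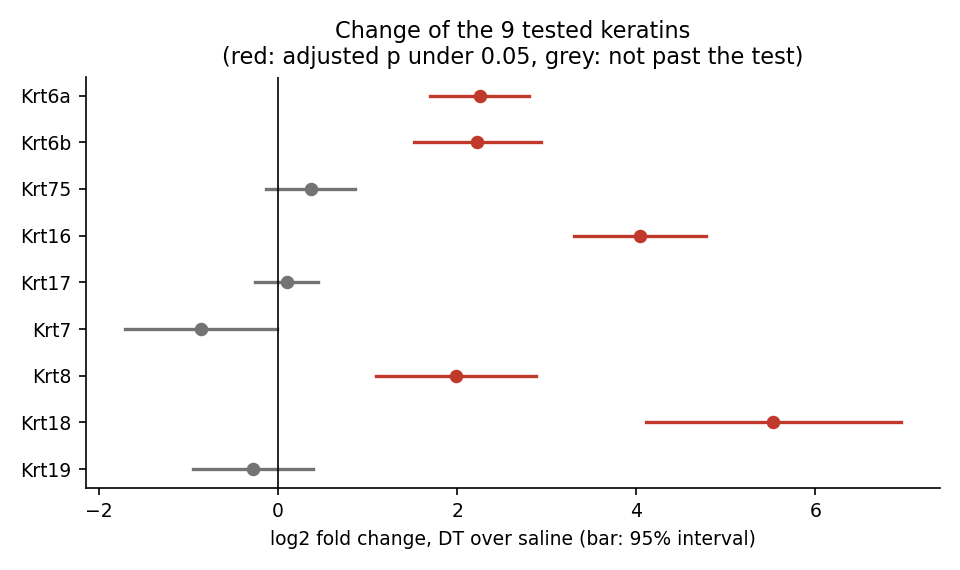
Log2 fold change of DT over saline for the 9 tested keratins, with 95% intervals. Krt18 (5.53) and Krt16 (4.04) lie farthest from 0, and the intervals of Krt17, Krt75 and Krt19 cross 0.

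Krt18, the type I keratin of simple epithelia, had the greatest log2 fold change of the 10. It was at 28.4, 38.2 and 24.3 CPM in DT libraries 1 to 3, against 0, 1.25 and 0.738 CPM in saline libraries 1 to 3. That is 1784 reads over the DT libraries and 44 over the saline libraries. Saline library 1 had 0 of 22741846 reads, which allows up to 0.132 CPM, for counting error only. The mean was 30.3 ± 7.14 CPM in DT and 0.662 ± 0.628 CPM in saline (SD, n = 3 each). The log2 fold change was 5.53 (SE 0.64, edgeR adjusted p = 0.000324), or 4.91 with saline library 1 left out and 6.36 with saline library 2 left out. It was 5.52 with DESeq2 and 6.82 with limma-voom, and ran from 3.64 to 6.82 over all alternatives. The 3.64 is a difference of log2(RPKM + 1), where 1 is added to saline values of 0 to 0.641 RPKM. Among the 2600 genes that rose it was 148th. Of its 50-base windows 0.72% occur in another gene.

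Krt8, the type II partner of Krt18, had 2.53, 4.70 and 4.19 CPM in DT libraries 1 to 3, against 0.953, 0.786 and 1.13 CPM in saline libraries 1 to 3. The groups did not overlap, and DT library 1 was the lowest of its group. The reads behind these values were few, 229 over the DT libraries and 66 over the saline libraries. The log2 fold change was 1.98 (SE 0.40, edgeR adjusted p = 0.00568). It was 2.04 but did not pass within the 4 libraries whose submitter identifiers belong to the larger number series (adjusted p = 0.0656). Krt8 shares 26.9% of its 50-base windows with the pseudogene Krt8-ps. It also overlaps Gm36026 on the other strand, which had 0 to 2 reads per library, as did Gm671, the antisense gene at Krt7; use of strand in the counting is not known here.

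The proportion of the pair also differed. By RPKM, Krt18 was 11.1, 8.04 and 5.73 times Krt8 in DT libraries 1 to 3, against 0, 1.57 and 0.646 times in saline libraries 1 to 3. The saline ratios rest on 0, 27 and 17 reads of Krt18 and 23, 17 and 26 reads of Krt8. This proportion was not tested, nor corrected for the windows that Krt8 shares with Krt8-ps. The 2 genes stand at the end of the type II locus, Krt8 (Entrez 16691) from 101996711 to 102004342 and Krt18 (Entrez 16668) from 102028216 to 102032026 on chromosome 15, 23.9 kb apart and transcribed away from each other. Krt18 is the single type I gene there, the other type I genes being on chromosome 11.

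RefSeq promoter windows in GRCm38.p6, from 250 bases before to 50 after the annotated start, were at hand for 5 of the 10 genes (Krt7, Krt8, Krt18, Krt20 and Krt75). Those of Krt8 (chr15:102004293-102004592, minus strand) and Krt18 (chr15:102027966-102028265, plus strand) are shown because this pair rose, and that of Krt7 (chr15:101412153-101412452, plus strand) because its level was lower in every DT library. Sequences run 5′ to 3′, and capitals mark a match to TATAAA on either strand.
Krt8: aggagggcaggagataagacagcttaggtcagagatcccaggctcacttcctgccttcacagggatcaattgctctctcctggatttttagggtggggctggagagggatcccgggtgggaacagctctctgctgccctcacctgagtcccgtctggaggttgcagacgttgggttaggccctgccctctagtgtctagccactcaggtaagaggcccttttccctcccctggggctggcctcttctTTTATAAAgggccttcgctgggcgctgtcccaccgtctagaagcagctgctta
Krt18: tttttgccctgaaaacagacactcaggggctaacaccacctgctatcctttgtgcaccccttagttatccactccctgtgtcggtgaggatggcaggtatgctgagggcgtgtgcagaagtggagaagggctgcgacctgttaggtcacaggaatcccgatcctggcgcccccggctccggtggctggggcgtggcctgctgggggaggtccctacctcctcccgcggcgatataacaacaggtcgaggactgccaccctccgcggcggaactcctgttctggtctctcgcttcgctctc
Krt7: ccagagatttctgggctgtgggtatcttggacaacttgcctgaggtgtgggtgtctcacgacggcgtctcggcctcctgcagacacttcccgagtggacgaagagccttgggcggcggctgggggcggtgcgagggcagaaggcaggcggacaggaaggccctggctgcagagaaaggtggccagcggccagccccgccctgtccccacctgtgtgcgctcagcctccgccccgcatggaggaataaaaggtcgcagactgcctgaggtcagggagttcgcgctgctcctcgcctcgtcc
The AP-1 motif TGANTCA was searched on both strands, as was the core of the antioxidant response element, TGACNNNGC, which binds NRF2 and can overlap an AP-1 motif. Neither is in the windows of Krt8, Krt18, Krt7 or Krt75, and Krt20 holds TGACNNNGC once, at -63 to -55. Of 32851 promoter windows 7.81% hold TGANTCA, 12.4% TGACNNNGC and 13.6% TATAAA, the last being a motif added after the values were seen. These are descriptions of the letters in the windows only. In Krt8 the forward and the reverse match overlap at the annotated start, and Krt18 and Krt7 have none.

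Krt7 (Entrez 110310, chromosome 15 from 101412403 to 101427806), a type II keratin of glandular and ductal epithelia, had 1.36, 1.61 and 1.28 CPM in DT libraries 1 to 3, against 2.53, 3.10 and 2.08 CPM in saline libraries 1 to 3. All DT values were below all saline values, from 85 reads over the DT libraries and 176 over the saline libraries. The log2 fold change of -0.86 (95% interval -1.71 to -0.01) did not pass after adjustment (edgeR adjusted p = 0.116, and 0.0537 to 0.319 over the alternatives).

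Krt19 (Entrez 16669, chromosome 11 from 100140810 to 100145926), a type I keratin of simple epithelia that is also known from the bulge, had 2.77, 2.69 and 3.43 CPM in DT libraries 1 to 3, against 3.85, 3.65 and 3.30 CPM in saline libraries 1 to 3. The groups overlapped in DT library 3 and saline library 3. Its log2 fold change was -0.28 (95% interval -0.95 to 0.39, edgeR adjusted p = 0.518). Krt20 (Entrez 66809, chromosome 11 from 99428385 to 99438153), the Merkel cell and gut keratin, had 2, 0 and 0 reads in DT libraries 1 to 3, against 0, 9 and 0 reads in saline libraries 1 to 3, too few to test.

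Markers of cells that could carry these keratins into the sort were tallied. Of all genes tested, 17.2% rose and 11.9% fell, and the counts below stand beside these shares. Of 9 Merkel cell markers 4 (Atoh1, Sox2, Pou4f3 and Gfi1) had 0 reads in all 6 libraries, and the list summed to 0.873 to 2.25 CPM in DT and 1.53 to 3.26 CPM in saline. Only 2 of the 9, Piezo2 and Syp, had enough reads to be tested, and neither passed. Of 4 sweat gland markers Foxa1 and Chrm3 had 0 reads throughout, and the list summed to 0.399 to 0.844 CPM in DT and 0.324 to 0.953 CPM in saline. Of 4 endothelial markers none rose or fell, with sums of 6.94 to 10.3 CPM in DT and 2.45 to 14.5 CPM in saline. The 8 suprabasal epidermal markers held 4 genes that fell and 0 that rose, with sums of 1120 to 1282 CPM in DT and 1359 to 1739 CPM in saline.

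In other lists some markers rose, as Krt6a, Krt16 and Krt18 did, and others fell, beside the same 17.2% and 11.9% of all genes tested. Of 4 smooth muscle and pericyte markers Acta2 and Tagln rose, and Rgs5 had 0 reads. Myh11 had too few reads to test, 14 over the DT libraries and 23 over the saline libraries. The sum was 27.0 to 109 CPM in DT and 2.54 to 4.78 CPM in saline. In DT most of it was Acta2, at 23.1 to 101.9 CPM. All 3 proliferation markers (Mki67, Top2a and Cdk1) rose, with sums of 362 to 758 CPM in DT and 43.8 to 69.1 CPM in saline. Of 6 inner bulge and companion layer markers Timp3 rose and 4 fell (1977 to 2465 CPM in DT, 2636 to 3219 CPM in saline), and of 6 infundibulum and isthmus markers 3 fell (430 to 477 CPM in DT, 704 to 886 CPM in saline). Of 5 hair germ and outer root sheath markers Gata3, Lgr5 and Sox9 fell (919.7 to 1219 CPM in DT, 1336 to 2188 CPM in saline). Of 7 sebaceous markers 2 of 5 tested fell (161 to 185 CPM in DT, 214 to 225 CPM in saline), and of 6 immune markers Itgam rose while Cd3e and Cd74 fell (96.3 to 121 CPM in DT, 142 to 199.8 CPM in saline). Col1a2 fell among 6 fibroblast markers (9.47 to 16.9 CPM in DT, 23.5 to 41.3 CPM in saline), and Dct among 5 melanocyte markers (7.99 to 9.98 CPM in DT, 12.3 to 24.8 CPM in saline). The part of all these markers in the changes of the keratins was not tested.

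The order of the 10 keratins by level, which is given per length in RPKM as the authors deposited it, differed between the groups below the top. Krt17 was first in both, at 15606 ± 3057 RPKM in DT and 14543 ± 972 RPKM in saline (SD, n = 3 each), followed by Krt6a at 901 ± 87.1 RPKM in DT and 189 ± 66.9 RPKM in saline. In DT, Krt16 (37.5 ± 5.82 RPKM), Krt6b (18.4 ± 2.52 RPKM), Krt18 (15.7 ± 3.89 RPKM) and Krt75 (4.62 ± 0.896 RPKM) came next, then Krt19 (2.03 ± 0.289 RPKM), Krt8 (1.99 ± 0.626 RPKM) and Krt7 (0.712 ± 0.0970 RPKM). The ranges of Krt6b and Krt18, and of Krt19 and Krt8, overlapped. In saline, Krt6b (3.94 ± 1.77 RPKM) and Krt75 (3.59 ± 0.515 RPKM) overlapped, as did Krt19 (2.46 ± 0.188 RPKM) with Krt16 (2.26 ± 1.08 RPKM), Krt16 with Krt7 (1.29 ± 0.252 RPKM), and Krt8 (0.498 ± 0.0904 RPKM) with Krt18 (0.341 ± 0.323 RPKM). Krt6a, Krt6b, Krt16 and Krt8 share 26.9% to 50.1% of their 50-base windows with other genes, and the rest of the 10 at most 3.99%. The order was not corrected for the reads lost in this way.

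Krt6a held a larger share of the type II keratin RNA in every DT library than in any saline library. Its share of the RPKM summed over the 25 type II genes was 13.7%, 17.6% and 16.1% in DT libraries 1 to 3, against 2.73%, 5.08% and 5.11% in saline libraries 1 to 3 (exact permutation test, two-sided, p = 0.1, the smallest possible). Krt5, the basal type II keratin, made up 78.0% to 82.2% of that sum in DT and 87.9% to 90.5% in saline, and its own log2 fold change did not pass the test (0.25, edgeR adjusted p = 0.195). The log2 ratio of Krt6a to Krt5 was 2.08 higher in DT (exact permutation p = 0.1). Among the 28 type I genes, Krt17 held 32.0%, 50.4% and 39.2% of the sum in DT libraries 1 to 3, against 47.2%, 38.9% and 39.2% in saline libraries 1 to 3, while Krt16 held 0.0776% to 0.1145% in DT and 0.00272% to 0.00923% in saline. The rest of the type I sum was mostly Krt15, with 35.5% to 56.8% in DT and 48.6% to 57.4% in saline, and Krt14, with 10.8% to 13.5% in DT and 3.38% to 4.55% in saline. These shares, too, were not corrected for windows shared with other genes, which made up 14.4% for Krt14 and 8.52% for Krt5.

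**Figure D3:**
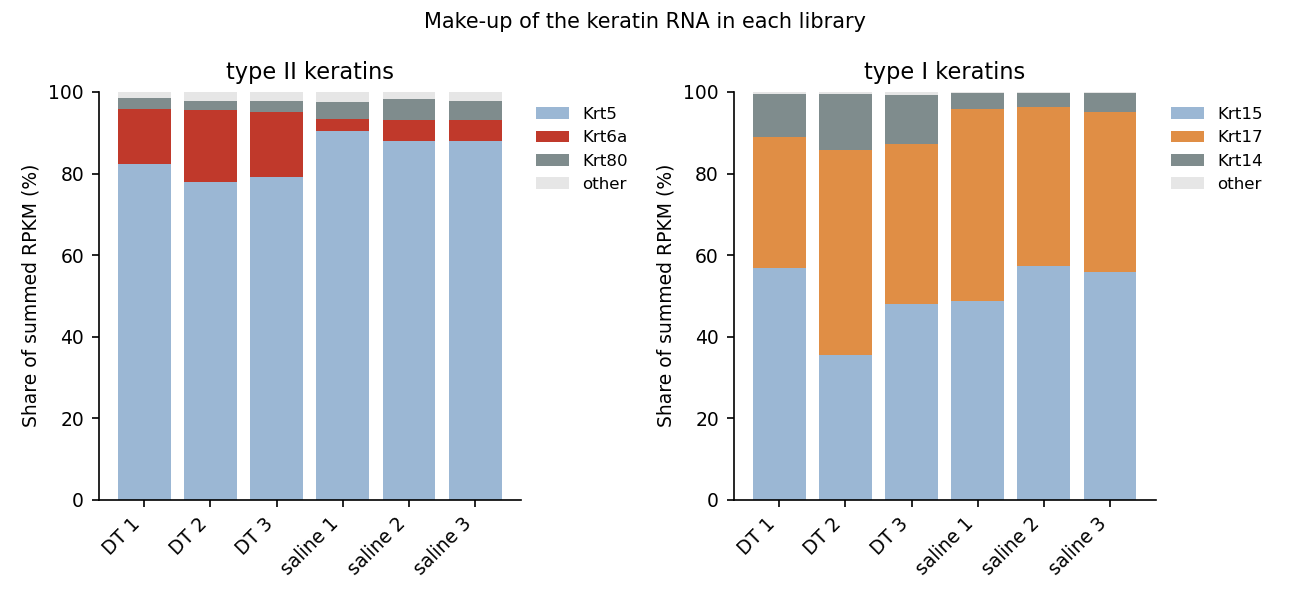
Share of each library's summed type II (left) and type I (right) keratin RPKM held by the leading genes, with DT libraries left of saline libraries. Krt6a holds 13.7% to 17.6% of the type II sum in DT and 2.73% to 5.11% in saline, while the share of Krt17 in the type I sum overlaps between the groups.

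Within the 2 sets, the balance of type II to type I RNA differed in opposite directions. Krt6a, Krt6b and Krt75 together, over Krt16 and Krt17, came to 0.0656, 0.0538 and 0.0600 by RPKM in DT libraries 1 to 3, against 0.00790, 0.0161 and 0.0167 in saline libraries 1 to 3. Krt7 and Krt8 together, over Krt18, Krt19 and Krt20, came to 0.121, 0.151 and 0.190 in DT libraries 1 to 3, against 0.669, 0.587 and 0.619 in saline libraries 1 to 3. The log2 ratio was 2.21 higher in DT for the wound-induced set and 2.04 lower for the simple set (-2.04), and neither set of ratios overlapped between the groups (exact permutation tests, two-sided, p = 0.1 each, the smallest possible). The first ratio is mostly Krt6a over Krt17. In the second, the type I part is mostly Krt18 in DT and mostly Krt19 in saline.

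**Figure D4:**
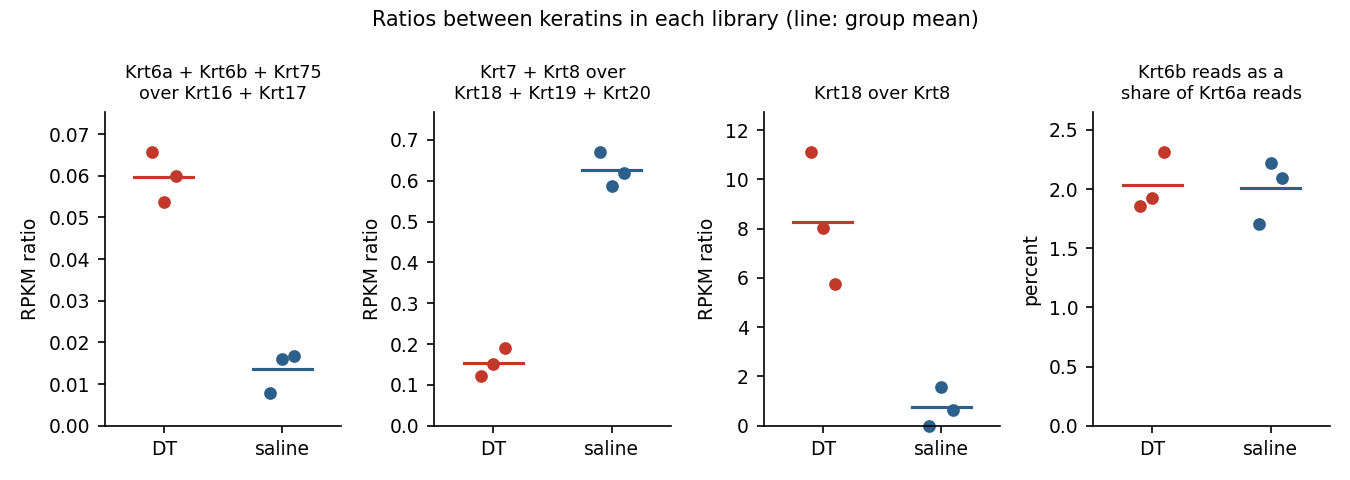
Ratios between keratins in each library, DT left of saline, with the group mean as a line; the first 3 panels are RPKM ratios and the fourth is Krt6b reads as a percentage of Krt6a reads. The type II to type I ratio is higher in DT for the wound-induced set and lower for the simple set, Krt18 exceeds Krt8 by 5.73 to 11.1 times in DT, and the Krt6b share lies between 1.71% and 2.31% in all 6 libraries.

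The other keratin genes moved in both directions. Of the 43, 21 were tested, 6 rose and 8 fell, where 17.2% and 11.9% of all genes tested did, and the median log2 fold change was -0.19. Krt90, a type II gene 0.4 kb from Krt75 in the same orientation, had the greatest rise of the family: 85.6, 178 and 136 CPM in DT libraries 1 to 3, against 0.124, 0.416 and 2.52 CPM in saline libraries 1 to 3. Its log2 fold change was 7.02 (SE 0.66, edgeR adjusted p = 0.000104), or 8.95 without saline library 3. Krt42, a type I gene 1.9 kb from Krt17, was at 106, 213 and 230 CPM in DT libraries 1 to 3, against 13.1, 11.6 and 16.1 CPM in saline libraries 1 to 3 (log2 fold change 3.75, SE 0.29, edgeR adjusted p = 4.28e-05). Both therefore lie beside a member that did not pass the test. Of the 50-base windows of Krt42 0.268% occur in another gene, and of those of Krt90 0%.

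The other keratins that rose were Krt14, the basal type I keratin (log2 fold change 1.78, at 8816 ± 514 CPM in DT and 2573 ± 331 CPM in saline), Krt32, a hair cuticle keratin (1.25), and the inner root sheath keratins Krt27 (1.65) and Krt73 (3.17). Those that fell were Krt24 (-1.54), the suprabasal Krt77 (-1.41), Krt1 (-1.38), Krt10 (-1.30) and Krt78 (-1.35), Krt79 of the infundibulum (-1.37), the inner root sheath keratin Krt71 (-0.97) and Krt80 (-0.53). Thus 4 of the 12 other type I genes tested rose and 2 fell, and 2 of the 9 other type II genes rose and 6 fell, beside the same 17.2% and 11.9% of all genes tested. Several of these calls were lost when a library was left out. Leaving out DT library 2, DT library 3 or saline library 2 ended the call of Krt73 (edgeR adjusted p up to 0.109), and its log2 fold change was 4.26 with saline library 3 left out and 2.56 with saline library 1 left out. The call of Krt27 ended without DT library 1 or saline library 2 (up to 0.0624). Krt71 did not pass without DT library 2 or 3 or saline library 1 or 3 (up to 0.0832), at log2 fold changes of -0.99 to -0.76. Krt80 did not pass without DT library 2 or 3 or saline library 2 or 3 (up to 0.138), at -0.57 to -0.41, nor Krt1 without DT library 2 (0.0714), and Krt1 was -0.78 without saline library 1. Within the 4 libraries of the larger number series, Krt73, Krt27, Krt78, Krt71, Krt80 and Vim did not pass.

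**Figure D5:**
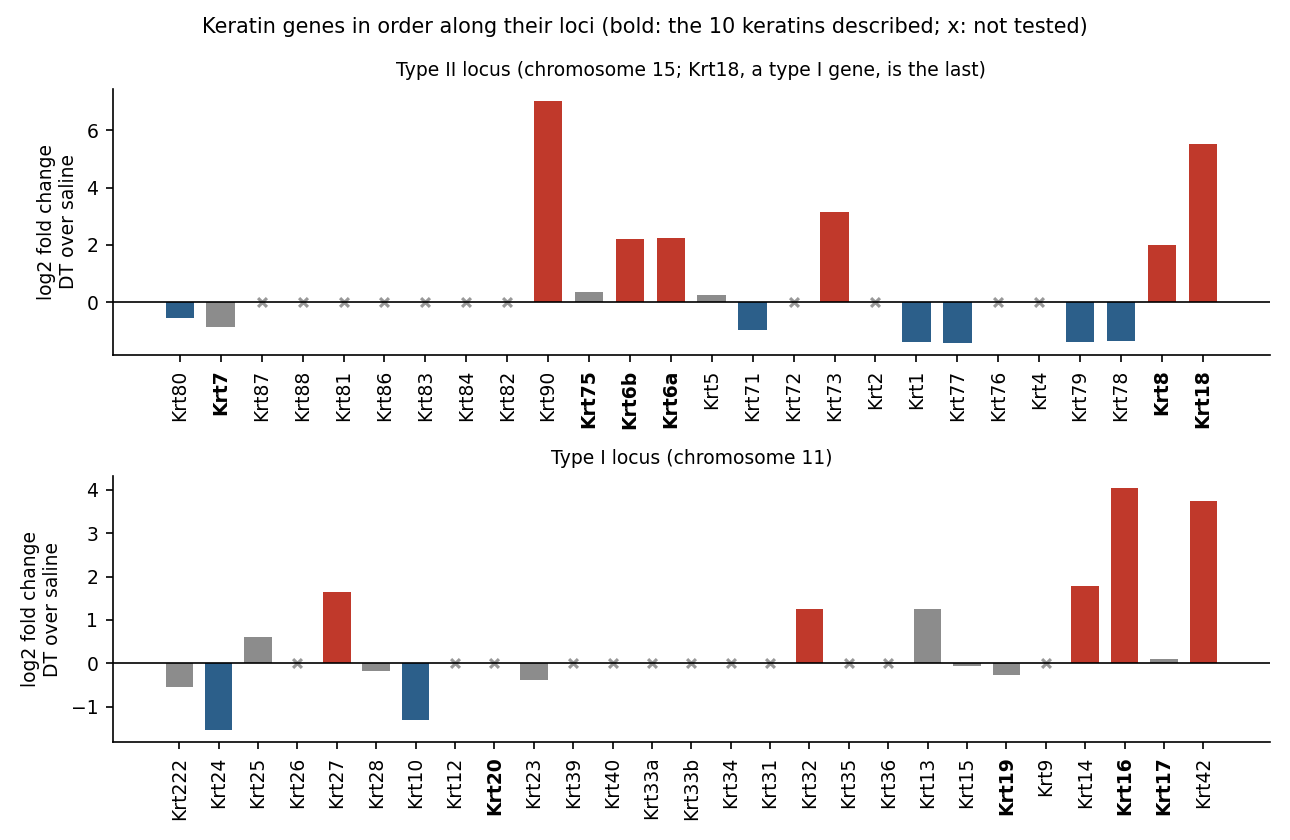
Log2 fold change of DT over saline for the keratin genes in their order along the type II locus (top) and the type I locus (bottom), with red for genes that rose, blue for genes that fell, grey for genes not past the test and crosses for genes not tested. Krt90 stands beside Krt75, and Krt42 and Krt16 flank Krt17, with rises of 7.02, 3.75 and 4.04.

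Of 18 genes for proteins that anchor or regulate keratin filaments, 1 rose and 2 fell, against 17.2% and 11.9% of all genes tested. Their median log2 fold change was -0.25. All DT libraries lay above all saline libraries for 3 of the 18 and below them for 7, against 25.4% and 20.5% of all genes tested. Sfn (14-3-3 sigma, an adaptor protein of keratinocytes) was at 363 ± 50.3 CPM in DT and 139 ± 21.0 CPM in saline (log2 fold change 1.39, edgeR adjusted p = 0.000279). Ppl (periplakin, a linker of keratin filaments to desmosomes) was at 136 ± 26.7 CPM in DT and 275 ± 33.5 CPM in saline (-1.01, adjusted p = 0.00198). Col17a1, a collagen of the hemidesmosomes on which basal keratin filaments end, was at 714 ± 89.2 CPM in DT and 1272 ± 335 CPM in saline (-0.83, adjusted p = 0.00937). Nfe2l2, which encodes NRF2, a known activator of Krt16 and Krt17 in mouse epidermis, had a log2 fold change of -0.19 (adjusted p = 0.251). The count of linkers that fell was 7 with scaling by library size only and 4 with DESeq2, without a filter on low counts or with consecutive identifiers as a block, and 2 rose with limma on RPKM or without saline library 1.

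Among 12 genes of other intermediate filaments, 7 were tested. Vim (vimentin, of mesenchymal cells) fell, with 5.91, 5.04 and 5.47 CPM in DT libraries 1 to 3, against 25.8, 6.80 and 20.4 CPM in saline libraries 1 to 3 (log2 fold change -1.69, edgeR adjusted p = 0.0129, and 0.0529 without DT library 2). Ina (internexin alpha, a neuronal filament protein) had 64 reads over the DT libraries and 0 in the saline libraries, at least 23.9-fold higher against 3 counts over the 3 saline libraries (edgeR adjusted p = 0.00277). The lamin genes Lmna, Lmnb1 and Lmnb2 did not pass the test.

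The genes whose log2 CPM followed Krt6a most closely over the 6 libraries, among 10510 named genes with a mean of at least 5 CPM, were Epha2 (Pearson r = 0.9981), Gm36543 (0.9968) and Adamts1 (0.9965). For Krt8 they were Ccna2 (0.999), Txndc17 (0.998) and Psma4 (0.9979). Among the 10 keratins, Krt18 (0.995) and Krt6b (0.994) followed Krt6a more closely than Krt16 did (0.910), and Krt16 (0.971) followed Krt8 more closely than its partner Krt18 did (0.878). These are descriptions over 6 libraries that fall into 2 groups, so genes that rise in DT tend to score high. Genes that are lower in DT tend to score negative, as Krt7 did (-0.848 with Krt6a and -0.891 with Krt8).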

How the data were processed

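The RNeasy Micro kit was used for RNA from sorted cells, per the labels' protocols. GSNAP aligned the reads to GRCm38, per the submitters' processing notes. Its version, the annotation and strand use are not given here by any source. The counts are reads that align uniquely to a gene model, per the file headers, so genes with near-copies are under-counted. The deposited RPKM values were adjusted by the authors with a size factor, per the file headers, and were an exact rescaling of the counts within a library.

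Symbols and coordinates came from RefSeq for GRCm38.p6, which names 31049 of 36528 Entrez numbers. Counts were tested with edgeR 4.0.16 (R 4.3.3; filterByExpr, minimum count 10 and minimum total 15; TMM; robust quasi-likelihood test, DT over saline, Benjamini-Hochberg over 15132 genes). The fit was tested on simulated data. Ratios used RPKM and an exact permutation test. Shared 50-base windows were counted in GENCODE M21 transcripts. No 2 libraries of a group were the same within counting noise (chi-square over its degrees of freedom, 21.5 to 65.6).

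The 10 keratins, the lists and the rule for named genes were chosen with earlier results of these data known. Named genes were the 10 keratins, up to 8 other keratins per direction past the test that averaged 1 CPM or more in the higher group, the called members of both lists, and the 3 genes closest to Krt6a and Krt8; Krt5, Nfe2l2, the lamins and marker genes were added. Alternatives were DESeq2 1.42.0 (size factors, and as a tool), library size scaling, other filters, limma 3.58.1 (voom, and log2(RPKM + 1) or log2(RPKM + 0.1)), identifier blocks and each library left out.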

Additional observations from a re-analysis of the deposited data

How the results depend on the processing

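For Krt6a, Krt6b, Krt16 and Krt18, log2 fold changes ran from 1.97 to 2.45, 1.88 to 2.50, 3.61 to 4.36 and 3.64 to 6.82. The low ends of Krt16 and Krt18 were differences of log2(RPKM + 1). Krt6a, Krt6b, Krt16 and Krt18 passed the test in the same direction under all 17 alternatives. Krt8 passed in 16, and not within the larger number series of identifiers (2.04, adjusted p = 0.0656). Within that series, with 2 libraries per group, 1097 genes rose and 473 fell, and 5 other keratins and 0 other intermediate filament genes fell. Krt17 turned with scaling by library size (-0.0006) and ran between -0.0823 (without DT library 2) and 0.20 with a library left out. Leaving out each library gave 1564 to 2826 genes higher and 996 to 2045 lower, 5 to 8 other keratins lower, 1 to 2 linkers higher, and 1 to 2 higher and 0 to 1 lower among other intermediate filaments. Linkers that fell numbered 7 with library size scaling and 4 with DESeq2, no filter or the block, and 2 linkers rose with limma on RPKM; 2 other intermediate filament genes fell without a filter. The simple type II to type I ratio differed by -2.37 on CPM. Consecutive identifiers as a replicate block called the same 5 keratins higher (Krt8 1.96); correlations of deviations within those pairs were 0.0159, 0.0132 and 0.165, so pairing was not assumed. The causes of these differences were not tested. With 3 libraries per group and at most 105 reads per library for Krt7, Krt8 and Krt19, small changes of these genes were not detectable at this depth.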
